A study of Caenorhabditis elegans with 2 samples.

Results

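The genes described here encode the respiratory chain and the ATP synthase of Caenorhabditis elegans. They were chosen by name from the nuclear protein-coding genes of the WBcel235 annotation: genes named nuo-, nduf-, cox-, atp-, asb-, asg-, ucr-, cyc-, sdha-, sdhb- or sdhd-, together with mev-1, isp-1, gas-1 and lpd-5. This gave 52 of 19973 genes. The choice used names alone and no measured value, and subunit genes under other names, such as ndua-13, were not members. The assay was ChIP-seq, in which chromatin is precipitated with an antibody and its DNA is sequenced, and which recovers the DNA bound by or near a protein. The protein was C08G9.2, carried as a fusion to GFP and FLAG at its C-terminal end and precipitated with an antibody against GFP. There was 1 group with 2 biological replicates, both whole hermaphrodite late embryos of strain OP513 (unc-119(tm4063) III; wgIs513), taken 5 hours after bleaching of eggs. Both replicates come from 1 transgenic line and carry the unc-119 allele, no untagged group was analysed here, and the promoter of the transgene is not given in the sources used here. Embryos were whole, so a region cannot be assigned to a tissue.

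Nuclear genes encode most subunits of the oxidative phosphorylation machinery in the inner mitochondrial membrane. Complex I takes electrons from NADH and complex II takes them from succinate. Both pass them through ubiquinone to complex III, and cytochrome c carries them on to complex IV, which reduces oxygen. The proton gradient built along the way drives the ATP synthase. In this worm, mutants of several of these genes are well known: mev-1 mutants are short-lived and sensitive to methyl viologen, isp-1 mutants are long-lived, and gas-1 mutants are hypersensitive to volatile anaesthetics.

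The sequences below are the genomic windows under 5 of the peaks that lay at member starts, shown because the binding result rests on these places. Each line is read 5′ to 3′ on the strand of the named gene, on ce11, with the 11 bases centred on the summit of the peak in capitals. The first window was shortened so that it holds no untranslated exon of the neighbouring gene.
atp-5, chrV:11124105-11124185, minus strand: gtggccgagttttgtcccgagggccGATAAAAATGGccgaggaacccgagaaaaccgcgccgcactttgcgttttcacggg
ucr-2.1, chrX:12018099-12018199, plus strand: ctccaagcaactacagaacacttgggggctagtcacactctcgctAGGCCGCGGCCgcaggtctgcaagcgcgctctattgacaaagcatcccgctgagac
cox-5A, chrIII:12905152-12905252, plus strand: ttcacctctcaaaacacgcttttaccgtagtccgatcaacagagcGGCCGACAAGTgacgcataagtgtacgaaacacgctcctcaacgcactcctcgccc
nduf-9, chrIII:3248825-3248925, minus strand: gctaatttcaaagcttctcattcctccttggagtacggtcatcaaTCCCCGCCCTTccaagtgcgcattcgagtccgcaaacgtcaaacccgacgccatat
mev-1, chrIII:10334100-10334200, plus strand: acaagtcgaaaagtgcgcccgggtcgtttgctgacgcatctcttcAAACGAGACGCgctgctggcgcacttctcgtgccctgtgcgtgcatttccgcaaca
Over all members with a thresholded peak, the G and C content from 50 bp before to 50 bp after the summit had a median of 54.5%, with a range from 51.5% to 59.4%. The median was 50.5% over all thresholded peaks and 44.6% over all pooled regions, while the 35 members with a pooled region had a median of 47.5% and a range from 28.7% to 61.4%. In this narrow window the median of the member peaks lay above that of both sets. From 100 bp before to 100 bp after the summit the order turned, with 44.3% for the member peaks, 47.3% for all thresholded peaks and 43.3% for all pooled regions. Both are descriptions of 7 windows.

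The values came from 4 lists of regions. The thresholded list held the 1416 peaks that the authors kept after ranking regions for reproducibility, with signals from 97.0 to 2395 and a median of 135. The pooled list held 30000 regions called on both replicates together, with signals from 25.6 to 2395 and a median of 38.0. The replicate 1 list held 27783 regions and the replicate 2 list held 29382. The pooled and replicate lists contain background regions by design, so a weak region there is not a peak. The unit of the signal is not stated. Each member peak had the same signal in the thresholded and pooled lists, while the replicate lists reached 1167 and 1236, so ranks within a list are given beside it, with rank 1 for the highest signal. A gene was counted when the summit of a region lay within 500 bp of its start. No read counts are given, so the depth behind each value is unknown.

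Respiratory chain and ATP synthase genes had thresholded peaks at their starts in 7 of 52 cases (13.5%), against 4.13% of all protein-coding genes (825 of 19973). A pooled region lay at 35 member starts (67.3%), against 32.2% of all genes (6429). A region in both replicate lists lay at 25 member starts (48.1%), against 19.7% of all genes (3932), and a region in any of the pooled and replicate lists lay at 39 (75.0%), against 43.8% of all genes (8749). The members thus stood above the background by each of these counts, and most of what they held was weak. Where a pooled region was present, its median signal was 51.6 over the 35 members (range 25.6 to 376) and 43.1 over the 6429 genes, and the median rank was 7383 for members and 11360 for all genes. The count of 7 became 3 when the distance was 250 bp, and 3 when only the 708 thresholded peaks of highest signal were used. Few member regions were among the strongest of the experiment: the best ranked 120 of 30000.

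**Figure D1:**
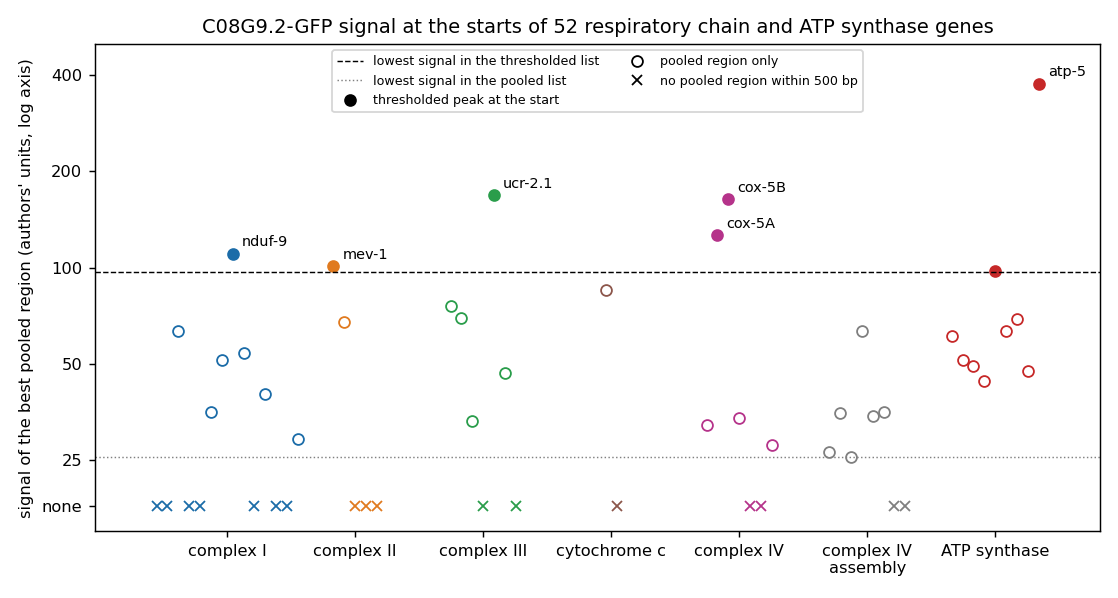
Signal of the best pooled region within 500 bp of each member's start (vertical log axis, authors' units), by complex. Filled circles are the 7 members with a thresholded peak (1 not labelled), open circles are members with a pooled region only, and crosses are the 17 members with none. atp-5 stands alone at 376, and the ATP synthase is the group with no cross.

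The ATP synthase genes were the members most often covered. All 9 had a pooled region, 7 had a region in both replicate lists and 2 had a thresholded peak, and the median pooled signal was 61.2 (44.2 to 376). The strongest was atp-5, which encodes subunit d of the peripheral stalk. Its region had a signal of 376 in the pooled list (rank 120), 186 in replicate 1 (rank 114) and 199 in replicate 2 (rank 117). It was near the top in every list, and the next member in the same lists ranked 507, 438 and 507. The peak (chromosome V, 11124021 to 11124256) had its summit 288 bp before the atp-5 start, in intergenic sequence. That summit lay closer to another gene: lmtr-3, which encodes a putative late endosomal and lysosomal adaptor protein, starts 31 bp away on the other strand, and the starts of both genes are 319 bp apart. The lists cannot assign the peak to either gene.

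The other ATP synthase gene with a thresholded peak was near the lower limit of that list, and the 7 without one were weaker still. atp-3, the oligomycin sensitivity-conferring subunit that joins the catalytic head to the stalk, had a pooled signal of 68.9 (rank 3454) and ranked 10816 in replicate 1 and 2986 in replicate 2. atp-2, the catalytic beta subunit, had 63.6 (rank 4257) and ranked 2177 in replicate 2, with no region in replicate 1. Its summit lay 476 bp past its start, in its own coding sequence and near the limit of 500 bp. A weaker pooled region of atp-2 (signal 49.9, rank 8020) lay 272 bp before the start. asb-1, a b subunit of the stalk that is expressed in the germ line, had 61.2 (rank 4748) and ranked 1133 in replicate 1, with no region in replicate 2, and its summit also lay in its own coding sequence, 437 bp past the start. In both genes a summit within 500 bp was thus found in a single replicate list. A summit of the other replicate just beyond that limit would not have been counted. atp-4, coupling factor 6, had 47.6 (rank 9018), with its summit 443 bp before the start in the 3′ untranslated part of alh-4. The replicate 1 region there ranked 2546. The replicate 2 region of atp-4, at rank 24110, was a different place, 452 bp past the start.

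Complex IV, cytochrome c oxidase, had strong and weak members and little between. Of 7 subunit genes, 2 had a thresholded peak, 5 had a pooled region and 2 had a region in both replicate lists, with a median pooled signal of 33.9. cox-5B, which encodes subunit Vb, had a signal of 163 in the pooled list (rank 535), 66.8 in replicate 1 (rank 667) and 93.2 in replicate 2 (rank 507). It was high in all 3 lists, its summit lay 29 bp before its start in intergenic sequence (chromosome I, 9788481 to 9788910), and no other coding start lay within 500 bp. cox-5A, which encodes subunit Va, had 127 in the pooled list (rank 800), 86.8 in replicate 1 (rank 438) and 31.25 in replicate 2 (rank 6771). The cox-5A peak (chromosome III, 12904987 to 12905416, summit 289 bp before the start) was therefore high in replicate 1 and far lower in replicate 2. Its replicate 2 signal was still above the median of that list, 22.9. cox-6A, cox-4 and cox-7C had pooled signals of 33.9, 32.3 and 27.9 and appeared in the replicate 2 list alone. cox-6B and cox-6C had no region in any list.

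Genes that assemble complex IV, which bring in heme and copper or help insert the membrane subunits, held none of the 7 thresholded peaks. With 8 genes, this cannot be told apart from the 4.13% of all genes. Of 8 such genes, 6 had a pooled region and 3 had a region in both replicate lists, with a median signal of 34.8 (25.6 to 63.6). The highest was cox-15, which makes heme A, with a pooled signal of 63.6 (rank 4261). It ranked 26122 in replicate 1 and 2967 in replicate 2, so it was near the bottom of the first list and in the upper part of the second. cox-17, the copper chaperone, had 35.5, cox-11 had 35.1, cox-16 had 34.5, cox-10, the heme farnesyltransferase, had 26.5 and cox-14 had 25.6. The cox-14 value was close to the lowest signal of the pooled list. cox-18 and cox-19 had no region in any list.

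Complex III, the cytochrome bc1 complex, had a pooled region at 5 of 7 genes, and all 5 were also in both replicate lists. The median signal was 69.7 (33.3 to 169), the highest of the complexes with at least 5 regions. ucr-2.1, a core protein gene, carried the thresholded peak (chromosome X, 12017934 to 12018363). Its signal was 169 in the pooled list (rank 507), 76.4 in replicate 1 (rank 536) and 91.9 in replicate 2 (rank 518). It was high in every list, with nearly the same rank in each. The summit lay 280 bp before ucr-2.1 but 106 bp from nmat-1, a nicotinamide nucleotide adenylyltransferase gene on the other strand, and the starts of both are 386 bp apart. Below it were the catalytic subunits. cyc-1, cytochrome c1, had 76.2 (rank 2620) and ranked 4586 and 2565 in replicates 1 and 2. isp-1, the Rieske iron-sulfur protein, had 69.7 (rank 3354) and ranked 3818 and 2546. Both were thus weaker than ucr-2.1 but above the pooled median of 38.0, and in the upper part of both replicate lists. Neither passed into the thresholded list. The isp-1 summit lay 338 bp before its start, in the 5′ untranslated part of islo-1. ucr-1, another core protein, had 33.3, and ucr-11 had no region.

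Cytochrome c is encoded by cyc-2.1 and cyc-2.2. cyc-2.1 had the highest pooled signal of any member without a thresholded peak, 85.0 (rank 1980), and ranked 9418 in replicate 1 and 1252 in replicate 2. Its summit lay 364 bp before its start, in a coding exon of rpl-20, the ribosomal protein gene just upstream. cyc-2.2 had no region in any list.

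Complex II, succinate dehydrogenase, also belongs to the citric acid cycle. mev-1, which encodes the large cytochrome b subunit, had a thresholded peak (chromosome III, 10333935 to 10334364). Its signal was 101.2 in the pooled list (rank 1282), 34.1 in replicate 1 (rank 3742) and 65.4 in replicate 2 (rank 968). The region ranked higher in replicate 2 than in replicate 1, where it was still in the upper part of the list. The summit lay 127 bp from mev-1 and 132 bp from jmjd-4, a Jumonji domain gene on the other strand, so it fell midway between starts 259 bp apart. sdha-1, the flavoprotein, had 67.5 (rank 3652) and ranked 12346 in replicate 1 and 1827 in replicate 2. sdhb-1, the iron-sulfur subunit, and sdha-2 had no pooled region and appeared in the replicate 2 list alone, at ranks 16861 and 25034. sdhd-1, the small cytochrome b subunit, had no region in any list.

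Complex I, the NADH dehydrogenase, had the most members and few strong regions. Of 14 genes, 1 had a thresholded peak, 7 had a pooled region and 5 had a region in both replicate lists, with a median signal of 51.6 (29.1 to 111). The peak (chromosome III, 3248660 to 3249089) was at nduf-9, an accessory subunit gene. Its signal was 111 in the pooled list (rank 1053), 46.0 in replicate 1 (rank 1553) and 62.2 in replicate 2 (rank 1087). It ranked much alike in both replicates, at a lower level than atp-5, ucr-2.1 and cox-5B. The summit lay 300 bp before the start, and the start of a microRNA gene, mir-4936, also lay within 500 bp of it. nduf-11 followed with 63.4 (rank 4298), then nuo-1, which encodes the NADH-binding flavoprotein, with 54.1 (rank 6554), and nduf-7 with 51.6 (rank 7383). nuo-3, nduf-6 and nuo-6 had 40.4, 35.4 and 29.1. Iron-sulfur and core subunit genes were among those with nothing: nuo-2, nuo-5 and gas-1 had no region in any list, nor had the accessory subunit genes nuo-4 and lpd-5. nduf-5 and nduf-2.2 had only replicate 1 regions, at ranks 15326 and 26671.

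**Figure D2:**
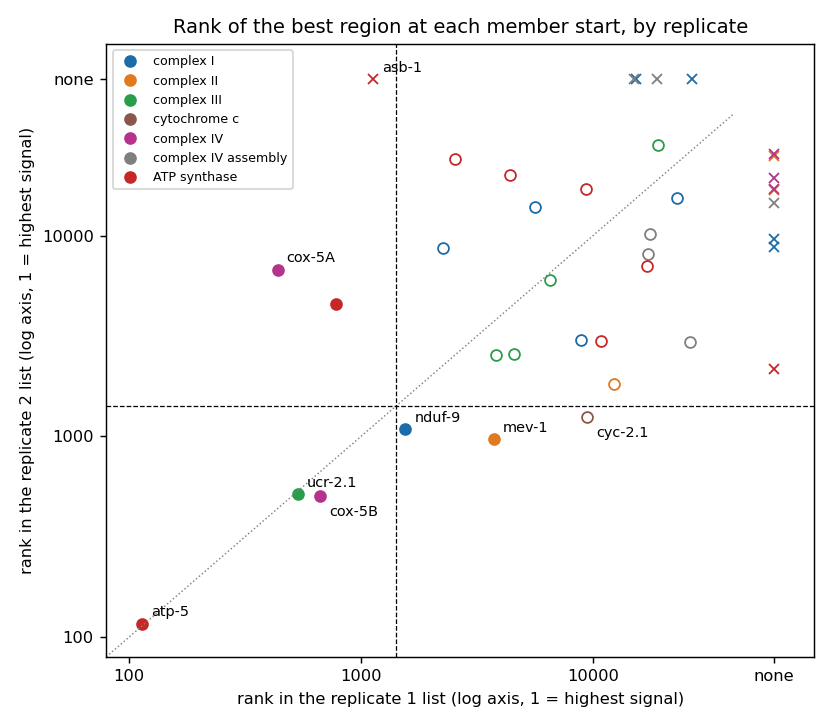
Rank of the best region at each member start in replicate 1 (horizontal) and replicate 2 (vertical), both log axes with rank 1 as the highest signal; crosses are members with a region in a single replicate list, and dashed lines mark rank 1416. atp-5, ucr-2.1 and cox-5B lie close to the dotted line of equal ranks inside both dashed lines, while cox-5A lies far from it.

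Members were found in both replicate lists more often than all genes, but with ranks farther apart. Of the 39 members with a region in at least 1 replicate list, 25 were in both (64.1%, against 46.6% of 8434 genes), 5 in replicate 1 alone (12.8%, against 24.6%) and 9 in replicate 2 alone (23.1%, against 28.8%). The best region was taken from each list apart. These regions overlapped by at least 1 bp for 24 of the 25 members and 3633 of the 3932 genes. atp-4 was the member for which they did not overlap. Overlapping regions could still have summits far apart, by up to 324 bp at cox-17. Over the 25 members, the larger rank was a median of 2.41 times the smaller, against 1.72 times over the 3932 genes, and it exceeded 3 times for 10 of 25 members and 855 of 3932 genes. A region near the top of a list has room for a wider ratio than one near the bottom. Members ranked higher than all genes (median pooled rank 7383 against 11360), and the ratios were not adjusted for this. Spearman's rho of the ranks was 0.43 over the 25 members and 0.65 over the 3932 genes. With overlapping regions alone, the median was 2.27 times for members and 1.71 times for all genes, and rho was 0.50 and 0.68. These are descriptions across genes of the same 2 libraries. The member region ranked higher in replicate 2 for 16 of 25 and in replicate 1 for 9. The widest ratios between overlapping regions were 15.5 times for cox-5A, 8.80 for cox-15, 7.52 for cyc-2.1 and 6.76 for sdha-1.

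A stricter view took the 1416 highest-signal regions of each replicate, as many as there are thresholded peaks. By this count 3 members (5.77%) were in the top set of both replicates, against 3.12% of all genes (624), and they were atp-5, cox-5B and ucr-2.1. In replicate 1 alone the top set reached 6 members (11.5%), against 3.97% of all genes (792), and in replicate 2 alone 6 members (11.5%), against 4.14% (826). The other members in the thresholded list were in the top set of 1 replicate each, which was replicate 1 for cox-5A and replicate 2 for nduf-9 and mev-1. asb-1 entered from replicate 1 and cyc-2.1 from replicate 2 without a thresholded peak.

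**Figure D3:**
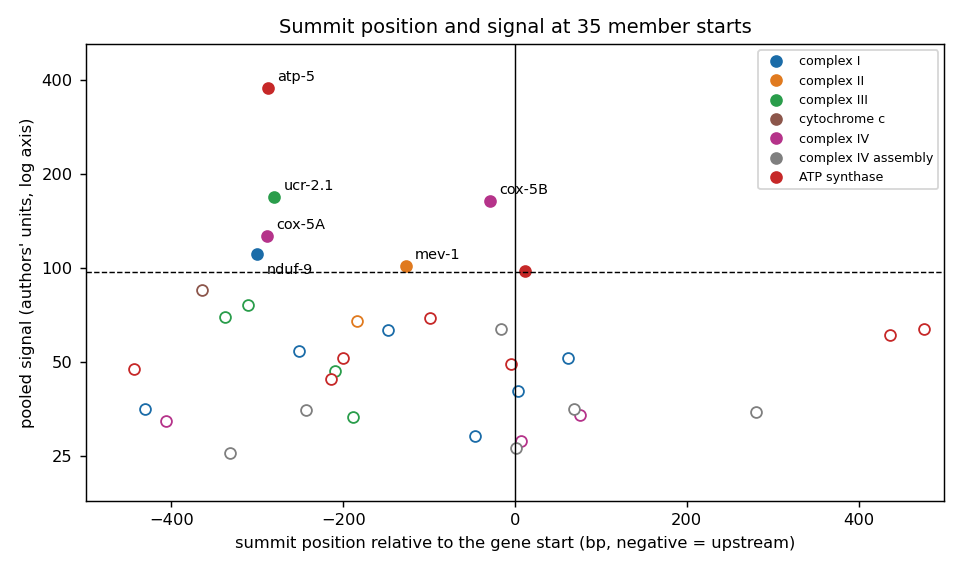
Pooled signal (vertical log axis, authors' units) against the position of the summit relative to the gene start (bp, negative is upstream) for the 35 members with a pooled region; filled circles are thresholded peaks and the dashed line is the lowest thresholded signal. The filled circles of atp-5, ucr-2.1, cox-5A and nduf-9 line up between 280 and 300 bp upstream. The summits of atp-5 and ucr-2.1 lie nearer to the start of another coding gene.

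Summits at member starts lay upstream more often than downstream. Of the 35 best pooled regions, 25 had their summit before the start, with a median position of -184 bp relative to the start, against 3839 of 6429 for all genes and a median of -80 bp. For the thresholded peaks, 6 of 7 summits were upstream. Of these, 4 fell in a narrow band: 280 bp upstream for ucr-2.1, 288 for atp-5, 289 for cox-5A and 300 for nduf-9. The band was noticed after the values were seen. The shares of all genes with a thresholded peak upstream or in this band were not computed. For atp-5 and ucr-2.1 another coding start was nearer to the summit, at 31 bp (lmtr-3) and 106 bp (nmat-1). Intergenic sequence held 20 of the 35 summits (57.1%), against 47.5% of the 6802 pooled regions near any coding start. The 6802 are all such regions, while the 35 are the best region of each member, so the sets differ in selection. Coding exons held 9 (25.7%, against 27.1%), untranslated exons at the 5′ end held 5 (14.3%, against 6.75%), and introns held 0, against 16.6%.

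Member starts were crowded. Another protein-coding start lay within 500 bp of 17 of 52 member starts (32.7%), against 11.2% of all genes (2239). Among the 7 members with a thresholded peak, 4 shared the peak with another coding start, and for 2 of them, atp-5 and ucr-2.1, the other start was the nearer. How often thresholded peaks are shared in this way over all genes was not computed, so these counts only describe the 7. By nearest start only, the member count was 5, and the share of all genes was 3.23%, against 4.13% otherwise. cox-5A, cox-5B and nduf-9 were the members whose peak had no other coding start within 500 bp. The asg-1 region was of this shared kind too, since the pooled region of rank 8344 lay 5 bp before asg-1 and within 500 bp of mrps-15.

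Many worm genes lie in runs on the same strand, and such runs are often transcribed together as operons from a promoter before the first gene. Members were therefore divided by whether a same-strand coding gene ended within 500 bp upstream, a division made after the values were seen. A gene that began upstream and ended past the start was counted too. The shares of all genes, here and for the runs below, can therefore include overlapping genes. The member gaps were all positive, from 20 to 458 bp. Of 52 members, 17 had such a neighbour (32.7%, against 20.8% of all genes), and 0 of these 17 had a thresholded peak at its own start, while all 7 peaks fell on the other 35 members (20.0%). Over all genes the shares were 2.50% with such a neighbour and 4.56% without. Pooled regions differed less, at 10 of 17 members with a neighbour (58.8%) and 25 of 35 without (71.4%). Over all genes a pooled region lay at 29.8% with such a neighbour and 32.8% without.

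These runs were followed upstream to their first gene, with mixed results. The first gene ranked above the member in the pooled list in 11 of 17 runs, where a member without a region counts as lower. In the runs of cyc-1, sdha-1 and ucr-2.2 the first gene had no pooled region, although the member had one. In those of asb-1, atp-4 and nduf-11 the first gene ranked below the member. The first gene had a thresholded peak in 4 of 17 runs and a pooled region in 14, and over all such runs in the genome the first gene had a thresholded peak in 8.33% (245 of 2940) and a pooled region in 39.7%. dad-1, which heads the run of ucr-11, had a pooled signal of 259 (rank 256) and ranked 279 in replicate 1 and 254 in replicate 2, with its start 911 bp from that of ucr-11. rpl-20, which heads the run of cyc-2.1, had 189 (rank 425) and ranked 608 and 366, with starts 766 bp apart. Y55F3AR.2, before cox-18, had 166 (rank 524, replicates 877 and 419), and lin-54, which encodes a DREAM complex protein and lies before cox-11, had 114.8 (rank 974, replicates 2540 and 700). For ucr-11 and cox-18, which had no region of their own, the run was thus headed by a strong peak. The nearest thresholded summits lay 1295 bp from the ucr-11 start and 3121 bp from the cox-18 start, and whether these runs are transcribed as operons was not tested.

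Paralogous members differed in signal in some cases and were alike in others. cyc-2.1 and cyc-2.2 proteins are identical at 82.0% of aligned positions, yet cyc-2.1 ranked 1980 and cyc-2.2 had no region. ucr-2.1, ucr-2.2 and ucr-2.3 are 39.6% to 41.0% identical to each other. ucr-2.1 ranked 507, ucr-2.2 ranked 9359 with a signal of 46.8 (6550 and 6041 in replicates 1 and 2, with summits 271 bp apart), and ucr-2.3 had no region. asb-1 and asb-2 are 72.6% identical and had pooled signals of 61.2 and 51.6. asb-1 was found in replicate 1 alone, while asb-2 ranked 4369 in replicate 1 and 20082 in replicate 2. asg-1 and asg-2, g subunits that are 76.3% identical, had 49.2 and 44.2. They were the pair most alike in the pooled list, with ranks of 8344 and 10737. In replicates 1 and 2, asg-1 ranked 17131 and 7098 and asg-2 ranked 9338 and 17097, so their order reversed. The pairs sdha-1 with sdha-2 (81.4%) and gas-1 with nduf-2.2 (92.8%), added after the annotation was seen, were unlike in the first case and both without a pooled region in the second. Reads from near-identical stretches could have been placed on either copy or dropped, and how the authors handled them is not given in the sources used here.

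Of the 17 members with no pooled region, 4 had a region in a single replicate list and 13 had none, and 5 had a pooled summit between 500 and 1000 bp from the start. Over all 17, the nearest pooled summit lay between 630 and 5175 bp away, with a median of 1213 bp. The nearest outside the 500 bp limit were nuo-4 at 630 bp and nduf-2.2 at 643 bp, and the farthest inside were asb-1 at 437, atp-4 at 443 and atp-2 at 476 bp. For the 45 members with no thresholded peak, the nearest thresholded summit was a median of 21848 bp away (777 to 140345). By signal, the weakest named member peak was mev-1 at 101.2 and the strongest region without a peak was cyc-2.1 at 85.0, on either side of the lowest thresholded signal of 97.0.

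In all, 7 short sequence motifs were searched on both strands from 50 bp before to 50 bp after each summit. Any of them was present in 1 of 7 member peaks (14.3%), against 29.8% of all thresholded peaks and 15.7% of all pooled regions. CCCGCC was present at nduf-9, inside the capitals printed above for that gene, and so in 1 of 7 member peaks (14.3%), against 7.42% of all thresholded peaks and 4.20% of all pooled regions. The other 6 motifs were present in 0 of 7. Over all thresholded peaks and all pooled regions, in that order, the E-box CACGTG was in 1.91% and 2.62%, and the hypoxia response core TACGTG was in 1.41% and 2.31%. CTGCGTC was in 7.34% and 2.47%, and the GA repeat GAGAGAGA was in 6.50% and 2.29%. TTTCGCG was in 3.53% and 1.96%, and GTTCGANNC, the B box of tRNA genes, was in 5.37% and 1.26%. No member window held more than 1 of these motifs. Over the 35 member regions in the pooled list, CTGCGTC was present at cox-16 and ucr-1 (5.71%, against 2.47% of all pooled regions) and CCCGCC at nduf-9 and cyc-1 (5.71%). The member shares rest on few windows and were not tested.

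**Figure D4:**
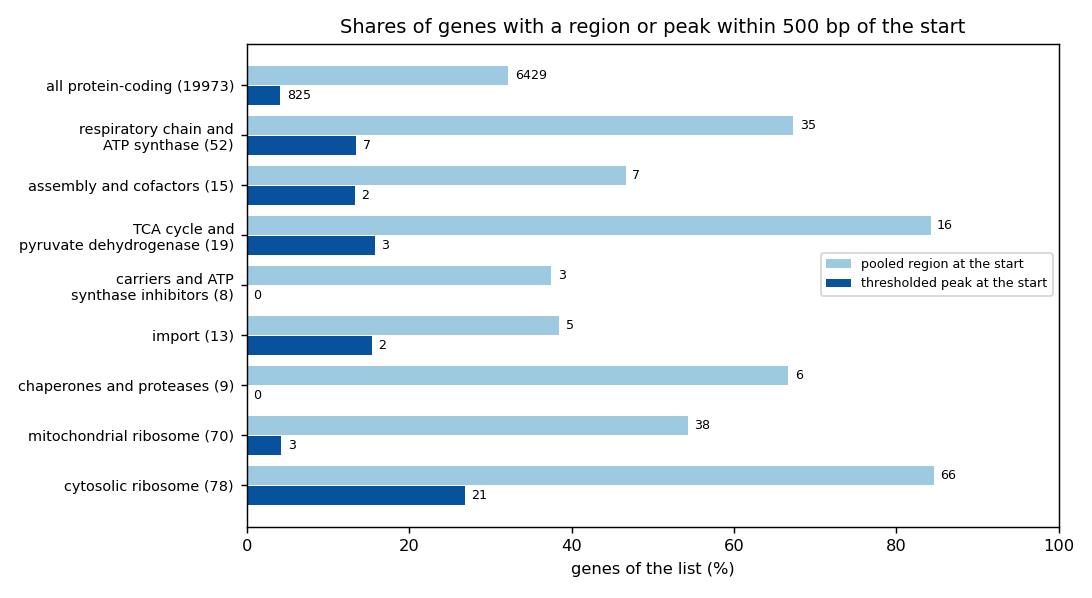
Share of genes (horizontal axis, percent) with a pooled region (light bars) or a thresholded peak (dark bars) within 500 bp of the start, for all protein-coding genes, the respiratory chain and ATP synthase, and other gene lists, with the list size in parentheses and the number of genes at each bar. The respiratory genes lie at 67.3% and 13.5%, below the cytosolic ribosome at 84.6% and 26.9%.

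Other genes of mitochondrial function were set beside the members. Genes for assembly factors and for ubiquinone synthesis had a thresholded peak in 2 of 15 cases (13.3%), or 1 within 250 bp, and a pooled region in 7. sco-1, which delivers copper to complex IV, had a signal of 308 (rank 174, replicates 192 and 157), and coq-5, a methyltransferase of ubiquinone synthesis, had 203 (rank 381, replicates 386 and 391). Both lay above every member but atp-5, and both ranked alike in the replicates. Citric acid cycle and pyruvate dehydrogenase genes had a thresholded peak in 3 of 19 cases (15.8%) and a pooled region in 16 (84.2%). From the top set of replicate 1 alone, that is without replicate 2, the first count was 1, and without replicate 1 it was 4. idhg-1, a subunit of isocitrate dehydrogenase, had 459 (rank 75, replicates 86 and 63), which exceeded atp-5. dlst-1 and suca-1, which act in consecutive steps of the cycle, had 120 (rank 900) and 100.5 (rank 1303).

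The remaining lists spread on both sides of the members. Import genes had a thresholded peak in 2 of 13 cases, tomm-20 (122, rank 865) and tin-13 (108.5, rank 1090). That count was 1 without replicate 1, without replicate 2 and within 250 bp. Mitochondrial ribosome genes had one in 3 of 70 (4.29%, against 4.13% of all genes), a count that was 5 without replicate 2 and 6 within 1000 bp, although mrps-35 (553, rank 34) and mrpl-18 (484, rank 61) were stronger than any respiratory member. The mrpl-18 summit lay nearer to the start of C14B9.8. Carriers and ATP synthase inhibitors had 0 of 8, with ant-1.1, the adenine nucleotide translocator, highest at 86.4. Mitochondrial chaperones and proteases had 0 of 9, with the prohibitin gene phb-2 highest at 86.5. In lists this small, 0 cannot be told apart from the 4.13% of all genes. The carriers and the chaperones had 1 each without replicate 2. A pooled region lay at 38 of 70 mitochondrial ribosome genes (54.3%), against 32.2% of all genes. A region in both replicate lists lay at 38.6% of them, against 19.7%. For import genes the pooled share was 38.5%, for carriers and inhibitors 37.5%, and for chaperones and proteases 66.7%. Cytosolic ribosome genes had a thresholded peak in 21 of 78 (26.9%) and a pooled region in 66 (84.6%), more often than the members by both counts. Median pooled signals where a region was present were 51.6 for the members, 61.6 for assembly and cofactors, 56.2 for the citric acid cycle, 46.4 for the mitochondrial ribosome and 63.2 for the cytosolic ribosome. The differences between lists were not tested.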

How the data were processed

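The authors deposited lists of ChIP-seq regions on ce11 for each replicate, for both replicates pooled and as a thresholded list made by irreproducible discovery rate, per the text records deposited with them. A control library was used upstream and was not analysed here. The sources used here name no aligner, peak caller or threshold. The lists hold no read counts, so depth and counting error are unknown. The signal of each region is as the authors deposited it, on a scale that is not stated. The summit offset, also as deposited, gave each summit, in 1-based coordinates. The ce10 lists were not used here.

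Gene starts, the 5′ ends of gene records, came from Ensembl release 115 (WBcel235, the same assembly as ce11). The region of highest signal with its summit within 500 bp of a start was taken from each list. Shares were set beside those of all protein-coding genes, and no test was run, since there was 1 group. The assignment was checked on simulated summits, drawn to fall inside or outside the 500 bp limit. It treated 200 of 200 as that limit requires, assigned when inside and left out when beyond. Of 19793 genes with no planted summit within 500 bp, 0 were called, an outcome that the limit itself fixes. Protein identity came from global alignments of translated coding sequences (Biopython 1.88, BLOSUM62). Python 3.11.15, numpy 2.4.6, scipy 1.17.1 and matplotlib 3.10.9 were used.

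The members, lists and motifs were chosen with earlier results of these data known. Named were members with a thresholded peak, the 6 others of highest pooled signal, the highest of each complex, the 4 with the widest rank ratio between replicates, paralogs, members with no region, and genes sharing a member peak. Further names were chosen after their values were seen. 1 member with a thresholded peak enters the counts and is not reported by name here. The alternatives were other windows, starts and peak sets, and leaving out each replicate.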

Additional observations from a re-analysis of the deposited data

How the results depend on the processing

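Of 23 alternatives for the member counts, the median and the motif count, 17 stayed within 1.5 times the main value (for the median, within its spread) and 6 did not. The 7 members with a thresholded peak became 3 within 250 bp (2.53% of all genes), 3 of the 35 whose start has no other coding start within 500 bp (3.08%), and 3 among the 708 peaks of highest signal (2.54%). They were 9 within 1000 bp and 5 by nearest start only. Without replicate 1 and without replicate 2 the count was 6 each, and each time 5 of the 6 were among the 7. The 35 members with a pooled region became 21 within 250 bp (19.4% of all genes), and were 30 to 34 with a single replicate. The 3 members in the top set of both replicates became 1 within 250 bp (1.84% of all genes). Member peaks with any searched motif rose from 1 to 3 in windows reaching 100 bp to either side. In those windows the share was 42.9%, against 47.1% of all thresholded peaks and 27.2% of all pooled regions. The pooled signal at cox-5A fell from 127 to 25.6 within 250 bp, since its summit lies 289 bp away. The pooled regions of atp-5, nduf-9 and ucr-2.1, with summits 288, 300 and 280 bp away, were lost altogether within 250 bp. These losses are not among the alternatives counted next. Over single members and the other gene lists, 32 of 43 alternatives stayed within these limits and 11 did not. Some of the 32 were fixed in advance, since a wider window cannot lower a best signal and a count of 0 cannot fall in a narrower one. The counts that moved stand beside each list in the text, except that chaperones and proteases also had 1 within 1000 bp. The cause of the other changes was not tested, although a narrower window or a smaller set holds fewer summits by construction. No paired analysis was possible because there is 1 group and no second condition. The unknown depth limits all weak regions.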
